A study of Sus scrofa with 8 samples.

Results

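The circadian clock and its output genes were examined in the livers of young and old sows. Of 10 genes sought by symbol, ARNTL, CLOCK, PER1, PER2, PER3, CRY1, CRY2, NR1D1, NR1D2 and DBP, 8 had an identifier among the 21607 mRNA rows of the deposited table. PER3 and NR1D1 could not be matched to a row and are not analysed here, and ARNTL was found under its newer symbol BMAL1. The Ensembl identifiers are ENSSSCG00000013397 for ARNTL, ENSSSCG00000008909 for CLOCK, ENSSSCG00000017983 for PER1, ENSSSCG00000016338 for PER2, ENSSSCG00000000164 for CRY1, ENSSSCG00000013270 for CRY2, ENSSSCG00000027017 for NR1D2 and ENSSSCG00000003148 for DBP. The 4 livers came from healthy, unrelated female Yana (also written Yanan) pigs, an indigenous Chinese breed, of which 2 were young (180 days of age) and 2 were old (8 years of age). The study chose these ages as the usual times of puberty and of reproductive exhaustion in sows, so age and reproductive state cannot be told apart in these animals. All were fed freely, fasted overnight before slaughter and stunned with electricity. Each liver gave 1 rRNA-depleted, strand-specific RNA-seq library and 1 small RNA library. The time of day at slaughter is not given in the sources used here, so age and hour of sampling cannot be told apart for any gene below.

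In liver cells, the clock is a loop of transcription and translation. ARNTL pairs with CLOCK on E-box sequences and switches on the PER and CRY genes, whose proteins return to the nucleus and repress that pair. A second loop runs through the nuclear receptors NR1D1 and NR1D2, which repress ARNTL, and RORA, which activates it. DBP, a PAR bZIP transcription factor, carries the rhythm to genes of metabolism. In the liver of mammals kept on a day cycle, DBP, NR1D1 and the PER genes peak in the part of the day when ARNTL is low. PER1 is in addition switched on directly by glucocorticoids and by cAMP signalling.

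The mRNA values are CPM, reads scaled by a total for each library that is not stated, and do not correct for gene length. Each gene is therefore compared between libraries and not with other genes. mRNAs took 37555696 and 37125093 reads in the young libraries and 22482241 and 24866406 in the old libraries, so values of genes with low expression were more precise in young livers. Listed hepatocyte markers were abundant in every library. For the 9 of 10 with an identifier, led by ALB, they summed to 50025 and 57520 CPM in young livers and to 35542 and 43154 CPM in old livers. Intervals below are exact 95% Poisson intervals for counting error and leave out variation between animals. PCR reads are not independent molecules, so the intervals may be too narrow even for counting error. Old replicate 1 stood apart by its interferon-stimulated genes, and the clock gene values that rest on it are given without it as well.

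PER1 showed the widest age difference of the 8 clock genes. Its level was 1.35 and 0.82 CPM in young livers (124 and 71 reads) and 6.32 and 4.46 CPM in old livers (389 and 320 reads). Both old livers lay above both young livers, and the intervals of 1.12 to 1.61 and 0.641 to 1.03 CPM in young livers did not reach those of 5.71 to 6.98 and 3.98 to 4.97 CPM in old livers. The mean was 1.09 ± 0.375 CPM in young and 5.39 ± 1.32 CPM in old livers (SD, n = 2 each), 4.97 times as high in old livers. On log2(CPM + 1), a scale that understates changes of genes with low values, the old-minus-young difference fitted with limma was 1.61 (standard error 0.24, adjusted p = 0.213). Of all 16898 mRNAs tested, 1.72% had a higher fitted difference. These are bulk samples, in which more expressing cells and more RNA per cell cannot be told apart.

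Whether PER1 passed a threshold depended on the test. Limma called 0 of 16898 mRNAs (0.00%) under the thresholds of 0.05 for the adjusted p and 1 for the size of the log2 fold change, and 0 of the 8 clock genes. Before adjustment, limma placed 1145 mRNAs (6.78%) higher and 1509 (8.93%) lower in old livers at the 0.05 level. PER1 was among the higher ones and NR1D2 among the lower ones. With TMM scaling in place of the deposited one, these 2 numbers were 1505 higher and 944 lower. On whole reads recovered from the values, the exact test of edgeR, the classic analysis named in the study's methods, called 457 mRNAs higher (2.70%) and 77 lower (0.456%), and DESeq2 called 683 higher (4.04%) and 197 lower (1.17%). PER1 was the only clock gene called by either, with a log2 fold change of 2.52 and an adjusted p of 0.0107 in the exact test of edgeR. DESeq2 gave PER1 a log2 fold change of 2.50 with an adjusted p of 0.000628. The numbers called rest on recovered reads and on the filter used here, and they are not those that the study reported. The quasi-likelihood test of edgeR, run on the same reads, called 0 of 16898 mRNAs (0.00%), had 1954 higher and 520 lower at the 0.05 level before adjustment, and gave PER1 an adjusted p of 0.276. An exact permutation test of 2 livers against 2 cannot give a two-sided p below 0.333 for any single gene.

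**Figure D1:**
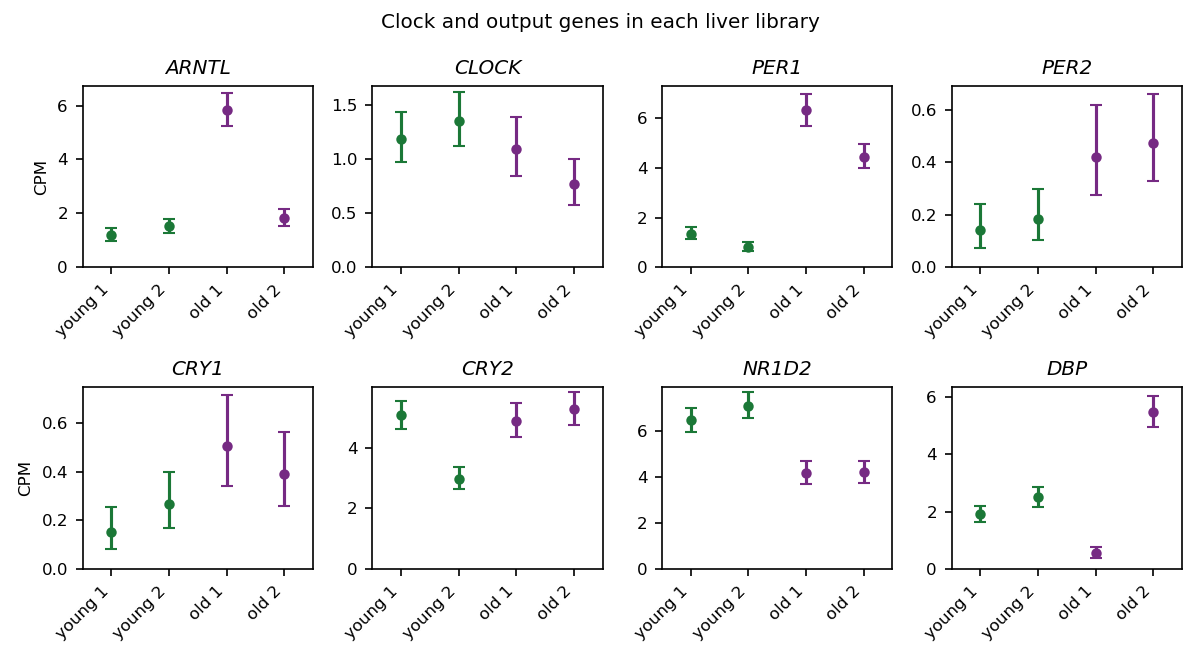
Level in CPM (vertical axes, starting at 0) of the 8 clock and output genes in the 2 young (green) and 2 old (purple) liver libraries, with exact 95% Poisson intervals for counting error as bars. PER1 was between 0.82 and 1.35 CPM in young and between 4.46 and 6.32 CPM in old livers, whereas ARNTL and DBP differed most between the 2 old livers.

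PER2, the paralog of PER1 and a repressor of the same pair, was at the low end of detection. It had 0.142 and 0.185 CPM in young livers (13 and 16 reads) and 0.422 and 0.473 CPM in old livers (26 and 34 reads). The age groups did not overlap and their means differed 2.74 times, but the counting intervals did, as that of old replicate 1 began at 0.276 CPM, within the interval of young replicate 2. The fitted difference on log2(CPM + 1) was 0.32 (standard error 0.11, adjusted p = 0.338, limma). At such low values its size depended on the pseudocount, at 1.06 with a pseudocount of 0.1 and 1.64 in the exact test of edgeR, which did not call it.

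CRY1 and CRY2, the cryptochromes that join PER proteins in repression, differed in their pattern. CRY1 had 0.152 and 0.266 CPM in young livers (14 and 23 reads) and 0.504 and 0.39 CPM in old livers (31 and 28 reads), with both old livers above both young ones by the level and with counting intervals that overlapped between young replicate 2 and either old liver. Its fitted difference was 0.26 (standard error 0.13, adjusted p = 0.446, limma), 0.84 with a pseudocount of 0.1 and 1.28 in the exact test of edgeR, where it was not called either. CRY2 had 5.06 and 2.97 CPM in young livers and 4.89 and 5.26 CPM in old livers, so that its age groups overlapped and young replicate 2 was the only low library. The fitted difference of CRY2 was 0.31 with all libraries (standard error 0.26, adjusted p = 0.651, limma). It was 0.61 without young replicate 1 and 0.00 without young replicate 2.

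NR1D2, the REV-ERB-beta receptor that represses ARNTL, had the tightest replicates of the 8 genes in old livers. Its level was 6.45 and 7.09 CPM in young livers (592 and 614 reads) against 4.16 and 4.19 CPM in old livers (256 and 301 reads). Both old livers lay below both young livers, and the lowest young interval began at 5.94 CPM whereas the highest old interval ended at 4.70 CPM. The fitted difference on log2(CPM + 1) was -0.59 (standard error 0.12, adjusted p = 0.231, limma). It stayed between -0.65 and -0.52 with any 1 library left out, and was -0.41 with TMM scaling. Its p before adjustment was 0.012 in limma. That p was 0.075 in limma with a trend, 0.090 with a pseudocount of 0.1 and 0.096 with a mean of at least 1 CPM required. The mean was 6.77 ± 0.458 CPM in young and 4.17 ± 0.0212 CPM in old livers (SD, n = 2 each), a ratio of 0.617. In the exact test of edgeR on recovered reads NR1D2 had a log2 fold change of -0.50 and an adjusted p of 0.874.

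CLOCK, the DNA-binding partner of ARNTL, was slightly lower in old livers. It had 1.19 and 1.35 CPM in young livers (109 and 117 reads) and 1.09 and 0.766 CPM in old livers (67 and 55 reads). The groups did not overlap, but the interval of old replicate 1, from 0.844 to 1.38 CPM, held the values of both young livers, so this difference was within counting error for that liver. The fitted difference was -0.24 (standard error 0.15, adjusted p = 0.536, limma).

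ARNTL and DBP differed more between the 2 old livers than between the ages. ARNTL had 1.198 and 1.525 CPM in young livers (110 and 132 reads), 5.82 CPM in old replicate 1 (358 reads) and 1.84 CPM in old replicate 2 (132 reads). DBP had 1.91 and 2.50 CPM in young livers (175 and 216 reads), 0.552 CPM in old replicate 1 (34 reads) and 5.49 CPM in old replicate 2 (394 reads). Old replicate 1 thus had the highest ARNTL and the lowest DBP of the 4 livers, and old replicate 2 had the highest DBP.

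For ARNTL, old replicate 1 was 3.16 times the next highest library, and its interval of 5.23 to 6.45 CPM lay far above the 1.54 to 2.18 CPM of old replicate 2. Both old livers were above both young livers, with a fitted difference of 0.90 (standard error 0.51, adjusted p = 0.502, limma). Old replicate 1 decided its size, since the difference was 0.27 without that library and 1.53 without old replicate 2. The young interval of 1.28 to 1.81 CPM in replicate 2 overlapped that of old replicate 2.

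For DBP the age groups overlapped completely, as the young levels lay between the old ones. Old replicate 2 was 9.94 times as high as old replicate 1, with intervals of 4.96 to 6.05 and 0.383 to 0.772 CPM. The fitted age difference of DBP was -0.01 (standard error 0.82, adjusted p = 0.998, limma), 1.03 without old replicate 1 and -1.04 without old replicate 2. On log2(CPM + 1) the gap between the old livers was 2.06 in size for DBP, and 1.497% of the 16898 mRNAs tested had a larger gap. For ARNTL the gap between the old livers was 1.26, and 5.20% of mRNAs had a larger one. Among the 9790 mRNAs with a mean of at least 1 CPM these shares were 2.57% for DBP and 8.56% for ARNTL. Between the young livers, 50.3% of the 16898 mRNAs had a larger gap than DBP and 58.9% a larger gap than ARNTL, so neither gene stood out there.

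The same values were also expressed as ratios within a library, from which library scaling drops out. The ratio of ARNTL to DBP restates the contrast given above and is no further support for it. ARNTL divided by DBP gave 0.629 and 0.611 for young livers, 10.5 for old replicate 1 and 0.335 for old replicate 2, so that the 2 old livers differed 31.4 times. The ratio of ARNTL to NR1D2 was 0.186 and 0.215 in young livers and 1.40 and 0.439 in old livers, higher in both old livers than in either young one. The ratio of ARNTL to PER1 gave another order, with 0.887 and 1.86 in young livers and 0.920 and 0.413 in old livers, which overlapped. In old replicate 1 PER1 was high while DBP was low, and the ratio of PER1 to DBP was 11.5 there, against 0.812 in old replicate 2 and 0.709 and 0.329 in young livers.

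**Figure D2:**
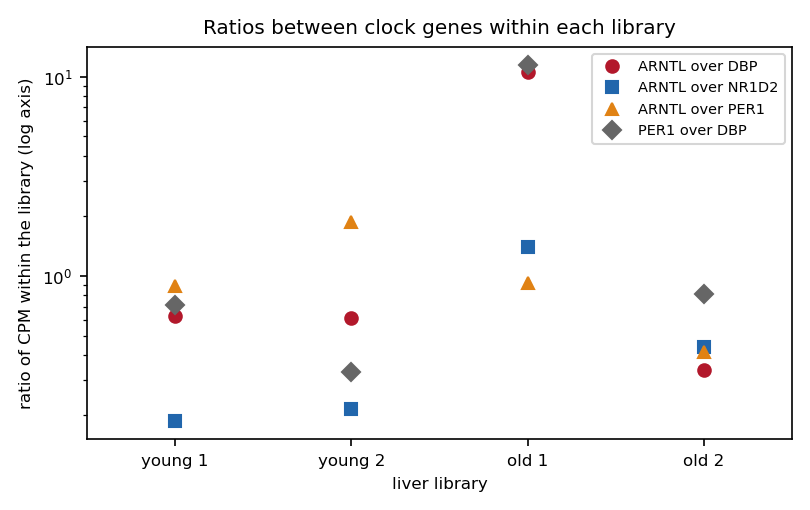
Ratio of the CPM of 2 clock genes within each liver library on a log axis. ARNTL over DBP reached 10.5 for old replicate 1, against 0.335 for old replicate 2 and 0.611 to 0.629 for young livers, and the value of one ratio cannot be set against another since gene length is not corrected.

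Genes that peak with the PER genes were also set against those that peak nearer to ARNTL. The mean of log2(CPM + 1) over PER1, PER2, NR1D2 and DBP minus that over ARNTL, CLOCK and CRY1 was 0.64 and 0.51 in young livers and 0.12 and 1.09 in old livers. The old livers lay on either side of the young ones, so the age groups overlapped in this measure. DBP and ARNTL, which had the widest gaps between the old livers among these genes, both enter the score. Its spread between the old livers therefore mostly restates their values. Without PER1 it came to 0.72 for each young liver, -0.30 for old replicate 1 and 0.94 for old replicate 2. No test was made of this score.

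Over the 8 clock genes, 4 (ARNTL, PER1, PER2 and CRY1) were higher in both old livers than in either young one, against 24.4% of all mRNAs tested, and 2 (CLOCK and NR1D2) were lower, against 25.0%. The median fitted difference was 0.28 over the 8 genes and -0.02 over the 16898 mRNAs tested, of which 7956 were above 0. With TMM scaling CRY2 joined the higher genes and CLOCK overlapped, giving 5 higher and 1 lower, against 29.4% and 18.8% of all mRNAs under that scaling. With a single old liver, groups fail to overlap more often for any gene. Without old replicate 1, DBP and CRY2 joined the higher genes for 6 higher and 2 lower, against 34.7% and 35.5% of all mRNAs. Without old replicate 2 there were 4 higher and 3 lower, with DBP among the lower ones, against 35.5% and 35.4% of all mRNAs.

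**Figure D3:**
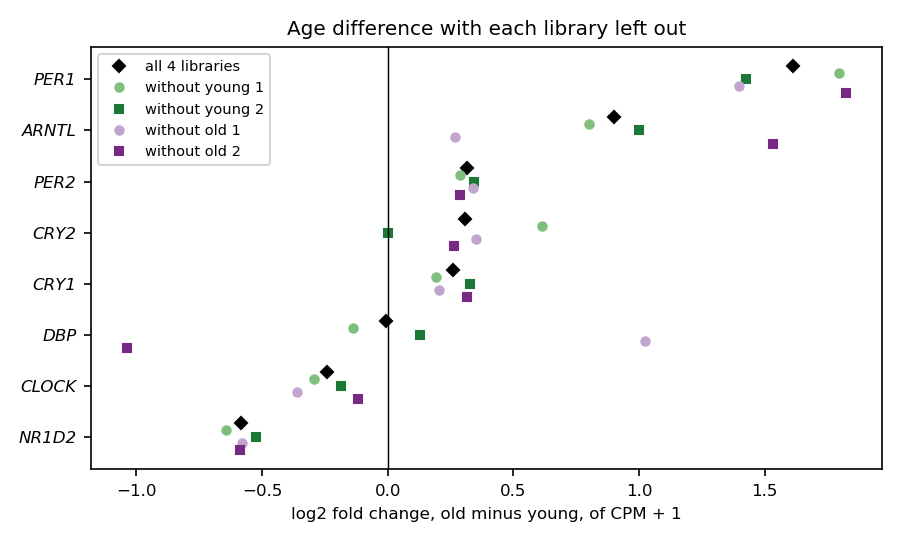
Old-minus-young difference on log2(CPM + 1) of each clock gene with all 4 libraries (black diamonds) and with each library left out (coloured points). PER1 stayed between 1.40 and 1.82 and NR1D2 between -0.65 and -0.52, whereas DBP ranged from -1.04 to 1.03 and ARNTL from 0.27 to 1.53 according to the old liver left out.

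Partners of the core loop were examined next. Of 9 listed partners, 7 had an identifier and 6 were tested, as RORB was listed at 0 in all 4 libraries, and 0 were called in limma. Of the 6 tested, 1 was higher in both old livers (24.4% of all mRNAs), 1 was lower (25.0%) and 4 overlapped. NPAS2, a paralog of CLOCK that can replace it, was higher in both old livers, at 0.120 and 0.185 CPM in young and 0.455 and 0.404 CPM in old livers. The fitted difference of NPAS2 was 0.31 (standard error 0.11, adjusted p = 0.349, limma). NPAS2 thus lay above and CLOCK below the young levels in both old livers, and neither difference was called in limma.

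RORA, a nuclear receptor that activates ARNTL, overlapped between ages, with 4.33 and 3.61 CPM in young and 5.41 and 3.10 CPM in old livers. TIMELESS, which in mammals acts mainly in DNA replication, was lower in both old livers (2.13 and 2.48 CPM in young, 0.926 and 1.02 CPM in old livers), with a fitted difference of -0.75 (standard error 0.13, adjusted p = 0.220, limma). ARNTL2 and BHLHE41 were below 0.4 CPM in every library and overlapped.

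The bZIP relatives of DBP shared its pattern only in part. Of 3 listed, HLF and NFIL3 had an identifier. HLF, an activator on the same D-box sequences, had 4.82 and 5.39 CPM in young and 5.59 and 9.87 CPM in old livers. NFIL3, the repressor that competes for those sequences, had 4.48 and 3.04 CPM in young and 5.25 and 7.52 CPM in old livers. Both were above the young levels in both old livers (24.4% of all mRNAs), but counting intervals overlapped. For HLF those of young replicate 2 (4.92 to 5.91 CPM) and old replicate 1 (5.01 to 6.21 CPM) overlapped. For NFIL3 those of young replicate 1 (4.05 to 4.93 CPM) and old replicate 1 (4.69 to 5.85 CPM) did. Old replicate 2 was the highest library for HLF and NFIL3 as it was for DBP. Old replicate 1, lowest of the 4 livers for DBP, was not lowest for either gene. The fitted differences were 0.47 for HLF (standard error 0.31, adjusted p = 0.553, limma) and 0.63 for NFIL3 (standard error 0.27, adjusted p = 0.398, limma). Without old replicate 2 they were 0.11 for HLF and 0.41 for NFIL3.

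Genes that control the turnover of clock proteins were examined in the same way. Of 9 listed, 7 had an identifier, of which 1 was higher (24.4% of all mRNAs), 3 were lower (25.0%) and 3 overlapped between the age groups, and 0 were called in limma. GSK3B, a kinase that phosphorylates several clock proteins, had 11.2 and 11.8 CPM in young and 5.53 and 7.02 CPM in old livers, a fitted difference of -0.79 (standard error 0.16, adjusted p = 0.235, limma). FBXW11, a paralog of the PER ligase BTRC, was at 1.81 and 2.36 CPM in young and 1.71 and 1.30 CPM in old livers. Its fitted difference was -0.30 (standard error 0.17, adjusted p = 0.509, limma). USP2, a deubiquitinase, was the gene higher in old livers, at 1.48 and 1.56 CPM in young and 1.80 and 2.78 CPM in old livers. Its fitted difference was 0.37 (standard error 0.20, adjusted p = 0.483, limma). Counting intervals of FBXW11 and of USP2 overlapped between old replicate 1 and a young liver. CSNK1E, CSNK1A1 and BTRC overlapped.

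**Figure D4:**
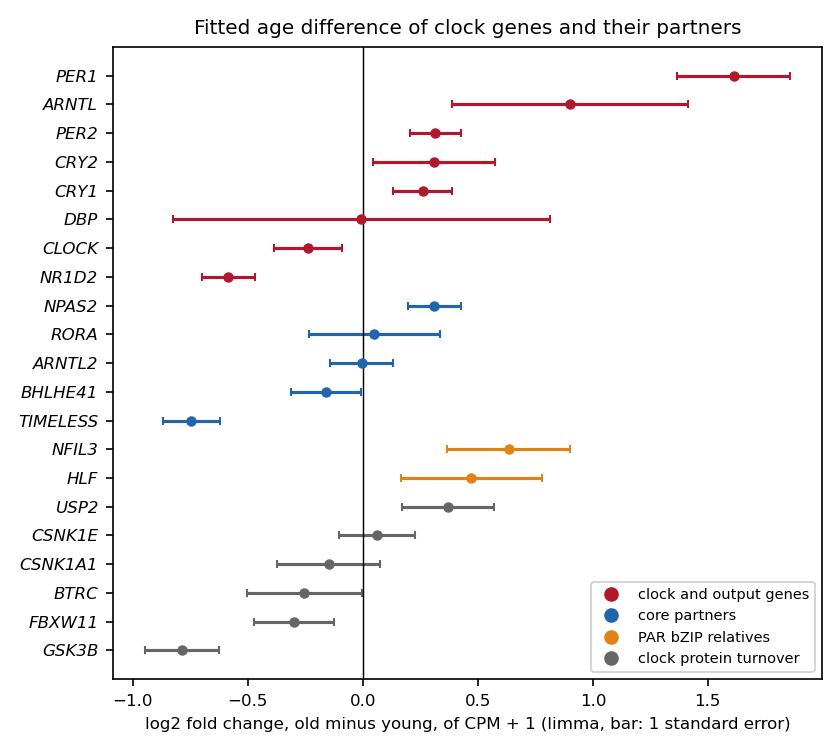
Old-minus-young difference on log2(CPM + 1) fitted with limma, with bars of 1 standard error, for the 8 clock genes (red) and others named in the text. The others are core partners (blue), bZIP relatives of DBP (orange, labelled PAR bZIP relatives) and genes of clock protein turnover (grey). PER1 had the highest value at 1.61 and GSK3B the lowest at -0.79, and no gene shown had an adjusted p-value under 0.05.

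Rhythmic output genes of the liver stood near the background of all mRNAs in the share that was lower. Of 13 listed, 12 had an identifier and 11 were tested, with CDKN1A listed at 0 in every library. In both old livers 0 were higher (24.4% of all mRNAs) and 3 lower (25.0%), 8 overlapped, and the median fitted difference was -0.16. GYS2, the liver glycogen synthase, had 47.3 and 56.3 CPM in young and 3.98 and 20.4 CPM in old livers, a fitted difference of -2.35 (standard error 0.83, adjusted p = 0.340, limma). The difference of GYS2 was -1.30 without old replicate 1 and -3.40 without old replicate 2. UPP2, a uridine phosphorylase, had 43.1 and 37.3 CPM in young and 15.7 and 19.5 CPM in old livers (difference -1.15, standard error 0.18, adjusted p = 0.215, limma). TFRC, the transferrin receptor, had 12.97 and 30.8 CPM in young and 11.4 and 12.5 CPM in old livers (difference -0.70, standard error 0.48, adjusted p = 0.571, limma). Only young replicate 2 stood far above the old livers for TFRC. The intervals of young replicate 1 (12.2 to 13.7 CPM) and old replicate 2 (11.7 to 13.3 CPM) overlapped.

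Some outputs varied between livers of 1 age by more than between ages. CYP7A1, the rate-limiting enzyme of bile acid synthesis and an output of DBP in rodents, had 2.72 and 12.0 CPM in young livers, 0.829 CPM in old replicate 1 and 34.7 CPM in old replicate 2. It was thus lowest and highest in the same livers as DBP. ALAS1, the first enzyme of haem synthesis, had 42.5 and 1.05 CPM in young and 33.8 and 14.7 CPM in old livers, an order unlike that of DBP. PPARA had 27.9 and 17.0 CPM in young and 5.51 and 20.5 CPM in old livers, again lowest in old replicate 1. These 3 genes were chosen after their values were seen, and no count of them was tested. Low levels in old replicate 1 were also seen outside this list. The sum of the hepatocyte markers was lowest there, at 35542 CPM, as were ALB, TTR, TF and CYP2E1. APOA1 and FGB were highest in that library, and APOA2, HNF4A and ASGR1 lay between.

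Several immediate early genes were higher in the same livers as PER1. Of 7 listed immediate early genes, 5 had an identifier, and 4 were higher in both old livers (24.4% of all mRNAs), with summed levels of 6.24 and 8.33 CPM in young and 42.9 and 277.2 CPM in old livers. FOS had 1.17 and 1.49 CPM in young and 9.95 and 206.2 CPM in old livers. JUNB had 0.131 and 0.994 CPM in young and 11.4 and 14.4 CPM in old livers, and IER2 had 3.52 and 2.69 CPM in young and 18.2 and 28.8 CPM in old livers. ATF3 had 0.740 and 1.16 CPM in young and 2.05 and 14.7 CPM in old livers. The fitted difference was 3.20 for JUNB (standard error 0.36) and 2.55 for IER2 (standard error 0.29), each with an adjusted p of 0.213 in limma. The exact test of edgeR, which called PER1, also called FOS (adjusted p = 0.00613), JUNB (adjusted p = 0.0059) and IER2 (adjusted p = 7.13e-05), and DESeq2 called these and ATF3 (adjusted p = 0.0229). Unlike PER1, FOS and ATF3 were much higher in old replicate 2 than in old replicate 1.

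Of 7 listed glucocorticoid-responsive genes, 6 had an identifier, of which 3 were higher in both old livers (24.4% of all mRNAs) and 3 overlapped, and 0 were called in limma. DUSP1, a phosphatase of MAP kinases that is also an immediate early gene, had 10.245 and 6.37 CPM in young and 65.2 and 56.6 CPM in old livers, a fitted difference of 2.76 (standard error 0.27, adjusted p = 0.213, limma). DUSP1 was called by the exact test of edgeR (adjusted p = 4.64e-05) and by DESeq2 (adjusted p = 1.8e-10), as PER1 was. It had the same order of the 4 livers as PER1, highest in old replicate 1 and lowest in young replicate 2. SGK1 had 13.98 and 8.43 CPM in young and 21.5 and 29.01 CPM in old livers, and ZBTB16 had 3.75 and 0.404 CPM in young and 11.9 and 4.51 CPM in old livers. FKBP5, KLF9 and TAT overlapped between ages, with fitted differences of 0.56, -0.02 and -0.48. The part of stress signals in the level of PER1 was not tested.

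**Figure D5:**
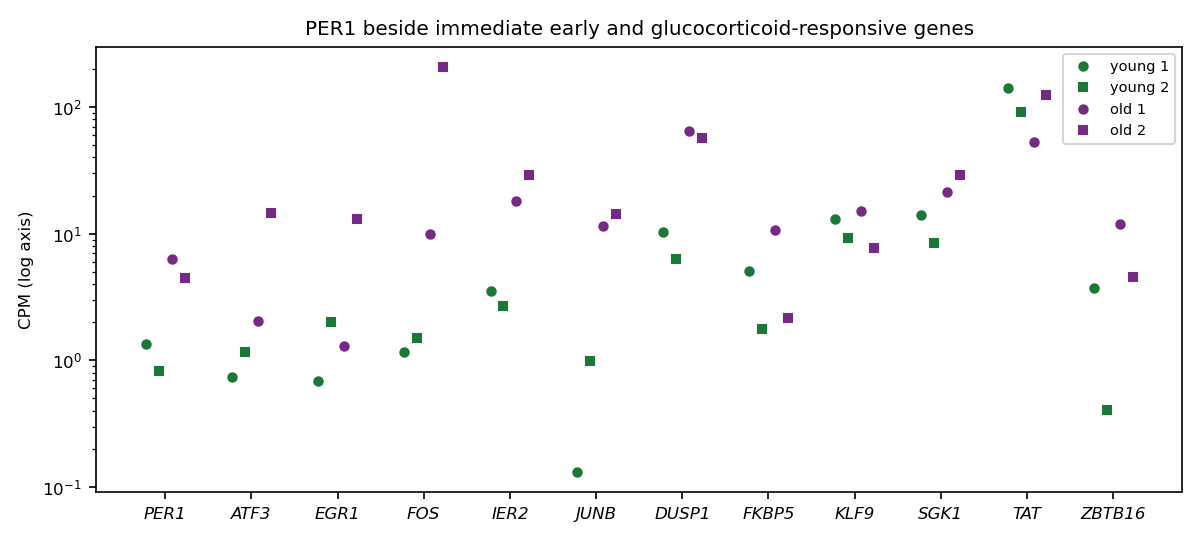
Level in CPM, on a log axis, of PER1, the 5 immediate early genes (ATF3 to JUNB) and the 6 glucocorticoid-responsive genes (DUSP1 to ZBTB16) with an identifier in the young (green) and old (purple) livers, with circles for replicate 1 and squares for replicate 2. Both old livers lay above both young livers for PER1, at 4.46 to 6.32 CPM, and for DUSP1, at 56.6 to 65.2 CPM, whereas EGR1, FKBP5, KLF9 and TAT overlapped.

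Markers of interferon signalling and of other cells moved with some libraries. Of 13 interferon-stimulated genes, 9 had an identifier, and their summed level was 21.5 and 31.3 CPM in young livers, 1519 CPM in old replicate 1 and 26.1 CPM in old replicate 2. The library with the highest ARNTL and lowest DBP was thus also the one with high interferon-stimulated genes, such as RSAD2 (0.664 and 1.54 CPM in young, 617.6 and 2.28 CPM in old livers), and the part of this state in the levels of ARNTL and DBP was not tested. Of 6 macrophage markers 4 had an identifier and 3 (CD68, MARCO and C1QA) were higher in both old livers (24.4% of all mRNAs), with a sum of 204.1 and 225.9 CPM in young and 290.2 and 284.1 CPM in old livers. Of 5 markers each, T and NK cells summed over 3 with an identifier to 4.95 and 6.41 CPM in young and 14.8 and 7.62 CPM in old livers, and endothelial cells over 2 to 19.4 and 16.9 CPM in young and 60.3 and 21.3 CPM in old livers.

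The remaining markers were mixed. Stellate cell and fibroblast markers (4 of 5 with an identifier) summed to 14.3 and 29.6 CPM in young and 9.88 and 31.8 CPM in old livers. B and plasma cell markers (2 of 4) stayed below 2 CPM and cholangiocyte markers (2 of 4) below 1 CPM in every library. Both erythroid markers with an identifier (of 3 listed) were lower in both old livers (25.0% of all mRNAs). Led by HBB, they summed to 621.3 and 429.0 CPM in young and 305.8 and 404.7 CPM in old livers. For ALAS2 the closest levels were almost equal, at 3.55 CPM in young replicate 2 and 3.53 CPM in old replicate 1. Skeletal muscle markers (2 of 5) reached at most 1.03 CPM, and MYL1 was listed at 0 in 3 of the 4 libraries. The part of these cells in the clock gene levels was not tested.

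miRNAs linked to the clock were read from the small RNA libraries of the same livers, in the authors' normalized signal. Summed over all 888 names, this signal ran from 1.12e+07 to 1.89e+07 between libraries, and it was not rescaled here. Of 21 names for miR-24, miR-29a, miR-122, miR-132, miR-142, miR-155, miR-185 and miR-219, 2 were higher in both old livers, against 27.6% of 888 names, and 6 were lower, against 15.8%. Several of the 21 are other names or the other strand of the same hairpin, so they are not independent. miR-122-5p, the abundant hepatocyte miRNA whose precursor is under REV-ERB control in mice, overlapped between ages with a signal of 4583856 and 2604957 in young and 3567829 and 4163810 in old livers. The strand miR-122-3p from the same hairpin had 3559 and 2138 in young and 10094 and 8242 in old livers, both old above both young.

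The names lower in both old livers were miR-185-5p, miR-219a-5p, miR-29a-5p and the porcine miR-24-1-5p, miR-155-3p and miR-219b-3p, and miR-132-5p was the other higher one. Some of these lay at a low signal, which limits what their order can say. miR-219a-5p had 9.34 and 13.5 in young and 1.14 and 4.76 in old livers. miR-155-3p had 18.7 and 6.74 in young and 2.27 and 2.38 in old livers. miR-132-5p had 61.4 and 44.3 in young and 176.2 and 63.0 in old livers, close to the young level in old replicate 2. The porcine name miR-132 overlapped, at 33.4 and 34.6 in young and 100.1 and 29.7 in old livers. The far more abundant miR-29a-3p overlapped, at 332248 and 216984 in young and 242708 and 244986 in old livers. Porcine miR-24-3p did so too, at 81123 and 53191 in young and 55411 and 43019 in old livers. miR-142-3p, which can target ARNTL, overlapped at 5201 and 3380 in young and 5898 and 3391 in old livers, as did miR-155-5p, which can also target it, at 8084 and 2708 in young and 4409 and 2960 in old livers. miR-185-5p, reported to target CRY1, was lower in both old livers, at 6285 and 4999 in young and 3908 and 2614 in old livers. CRY1 itself was higher in both old livers by its level, as given above, and no correlation of the pair was computed over 4 livers. No test was run on the miRNA signal.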

How the data were processed

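The authors aligned the clean RNA-seq reads to Sscrofa10.2 with TopHat2 2.0.14, assembled them with StringTie 1.2.3 and named the values TPM from Salmon 0.6.0. The deposited mRNA values were instead treated as CPM, since 100% of the values above 0 in each library lay within 0.001 CPM of a whole multiple of 1 step, the same for every gene, which gave whole reads. The deposited miRNA values, made by the authors with mirdeep2, are a signal scaled to a total not stated in the sources used here, and were used as values with no test. lncRNA and circRNA tables were not used here, as their Sscrofa10.2 coordinates could not be joined to the Sscrofa11.1 gene table. Symbols came from a gene name table, which covered 11654 of the 21607 identifiers.

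Old and young livers (2 each, grouped by their labels) were compared with limma 3.58.1 on log2(CPM + 1) over mRNAs above 0 in 2 or more libraries. P-values were adjusted by Benjamini-Hochberg, with thresholds of 0.05 for the adjusted p-value and 1 for the absolute log2 fold change. Alternatives were edgeR 4.0.16 and DESeq2 1.42.0 on recovered reads, other pseudocounts, filters, scalings, a trend, a replicate block and leaving out each library. Fits were tested on simulated data. R 4.3.3 and Python 3.11.15 were used.

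Named genes were the clock genes and, per further list, NPAS2, RORA, HLF and NFIL3 and up to 4 genes with the largest absolute difference among those with a mean of at least 1 CPM and no overlap between ages. Some genes of these lists are counted but not reported by name here. Members and lists were chosen with earlier results of these data known.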

Additional observations from a re-analysis of the deposited data

How the results depend on the processing

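Of 118 alternative fits of the 8 clock genes, 109 kept the direction and the side of the threshold. This count overstates how stable the results are. Another filter, a trend or a replicate block leaves the limma difference of a gene as it was, so those fits could not change direction. Alternatives that called 0 mRNAs, as given below, moved no gene across the threshold. PER1 passed the threshold in the exact test of edgeR (log2 fold change 2.52) and in DESeq2 (2.50). DBP, at -0.01 in limma, changed direction in 7 alternatives, at 0.12 with TMM scaling, 0.011 with libraries shifted to the same median, 0.65 in both tests of edgeR, 0.63 in DESeq2, 0.13 without young replicate 2 and 1.03 without old replicate 1, and it ranged from -1.04 to 1.03 over the 4 libraries left out in turn. The number of mRNAs called was 2 with a mean of at least 1 required, 534 in the exact test of edgeR, 880 in DESeq2 and 0 under every other alternative, among them the quasi-likelihood test and any library left out (0 to 0). The cause of these differences was not tested. The median log2 fold change of all mRNAs was -0.02 in limma, 0.04 with TMM scaling and 0.12 in the exact test of edgeR. With the replicate numbers as a block, 0 mRNAs were called and PER1 had an adjusted p of 0.344 in limma, and no call changed. Same-numbered libraries deviated together with a correlation of only 0.09 over 16898 mRNAs, and the numbers share no stated origin, so the libraries were not treated as pairs. The contrast of PER-phase against ARNTL-phase genes was 0.97 and 0.64 in young replicates 1 and 2 with a pseudocount of 0.1, and without PER1 it was 0.72 in young replicate 2 and -0.30 in old replicate 1. CRY1 and PER2 have means under 1 CPM, so no value with that filter can be given. At most 34 reads per library stood behind PER2 and CRY1, which limits what can be said of them. The counts of genes without overlap, and the values of GYS2, HLF and NFIL3, with a library left out were chosen after seeing the data.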
